A study of Mus musculus with 8 samples.

Results

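The response of the Ddx6-KO line of 3T3L1 preadipocytes to 2 days of adipogenic induction was read from 4 of 8 RNA libraries, 2 at day 2 and 2 at day 0. Genes entered where they reached 1 FPKM (fragments scaled to transcript length and library size) in at least 2 of the 8 libraries, which held for 15811 of the 46073 genes in the table. 3T3L1 is an established line of Swiss albino mouse preadipocytes. Ddx6-KO cells carried a lentivirus with Cas9 and a guide against exon 4 of Ddx6, and TOM cells, the mock transfectants with their own 4 libraries, carried Cas9 and a guide against tdTomato, so that all 8 libraries came from puromycin-selected cells that hold Cas9. Single cells were grown out after selection, and a line may therefore stand for 1 clone. The cocktail held isobutylmethylxanthine, dexamethasone and insulin. Titles placed each library at day 0 or day 2, whereas a treatment note shared by all libraries gave a harvest 2 days after induction, and the titles were followed here. No source says whether the 2 libraries of a group stem from different cultures. The p-values below therefore cover the spread between these libraries, and that spread may be technical.

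Each component of the cocktail acts through its own route. Dexamethasone activates the glucocorticoid receptor, isobutylmethylxanthine blocks phosphodiesterases and so raises cyclic AMP, and insulin at high dose also acts through the IGF-1 receptor. In 3T3L1 cells these signals are known to raise Cebpb and Cebpd early and Pparg and Cebpa later, before genes of the fat-storing cell appear. DDX6 is a DEAD-box RNA helicase of processing bodies, cytoplasmic granules that hold mRNAs together with decapping and decay factors.

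Ddx6 RNA was read first, as a check of the labels. It stood at 50.0011 and 43.04 FPKM at day 2, against 27.2 and 31.9 FPKM at day 0, where libraries were labelled Ddx6-KO. The libraries labelled TOM had 28.8 and 28.4 FPKM at day 2, against 11.3 and 19.9 FPKM at day 0. The guide's target was thus no lower in the libraries labelled Ddx6-KO on either day. Between day 2 and day 0 of the Ddx6-KO line its log2 change was 0.64 (adjusted p = 0.160). A level over the whole gene cannot show a short insertion or deletion, so these values do not test the edit. The paper reports that loss of the Ddx6 protein in the edited cells was checked by western blot.

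All 4 Ddx6-KO libraries held preadipocyte genes, and of 4 fat-cell genes only Fabp4 was above 2 FPKM. The summed level of 8 preadipocyte markers was 904 and 886 FPKM at day 2, against 751 and 776 FPKM at day 0, and Thy1 was under 1 FPKM throughout. The higher sum at day 2 came mainly from Vim, at 597 and 612 FPKM at day 2, against 343 and 371 FPKM at day 0, and Pdgfra. Other markers were below their day 0 levels in both day 2 libraries, Col1a1 at 112 and 95.8 FPKM at day 2, against 206 and 214 FPKM at day 0, Dlk1 at 27.9 and 13.5 FPKM at day 2, against 70.3 and 57.01 FPKM at day 0, Pdgfrb at 31.3 and 29.8 FPKM at day 2, against 51.2 and 47.96 FPKM at day 0 and Ly6a at 5.08 and 14.1 FPKM at day 2, against 27.4 and 29.1 FPKM at day 0. The sum of Adipoq, Fabp4, Plin1 and Cidec was 10.7 and 5.92 FPKM at day 2, against 28.2 and 27.3 FPKM at day 0, most of it from Fabp4. The spacing of low FPKM values put the libraries at about 1480000 and 2530000 fragments at day 2, against 5690000 and 3600000 at day 0, and 1 fragment of a 2 kb transcript was worth 0.337 and 0.197 FPKM in the day 2 libraries. The 10 highest genes took 41.0% to 59.5% of the FPKM sum of a library. The most abundant feature, the predicted gene Gm10800, was at 75487 and 172128 FPKM at day 2, against 27773 and 52908 FPKM at day 0. In bulk RNA, fewer cells of a type and less RNA per cell cannot be told apart.

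Of the 15811 genes, 759 were higher at day 2 than at day 0 of the Ddx6-KO line (4.8%) and 925 were lower (5.85%), at an adjusted p under 0.05 in limma on log2(FPKM + 1). All changes are given on that scale, on which genes at low levels appear to change less than they do. A change of at least 2 units was seen in 130 of the higher and 146 of the lower genes. At an unadjusted p under 0.05, 2122 of the 15811 genes were higher and 1940 lower. These are the background for the unadjusted counts of lists given below. For all 759 higher and 925 lower genes, the libraries of the 2 days did not overlap. A lack of overlap therefore adds nothing to a call. The split of called genes depended on the scaling. When each library was rescaled to a common sum (TPM), 394 genes were higher and 2156 lower, and the median change of all genes was −0.25 in place of 0.09, so every TPM value below stands against that shift. Median-ratio scaling gave 550 higher and 1036 lower genes with a median of −0.00. Leaving out a Ddx6-KO library also moved the counts, to 198 higher and 231 lower without day 0 library 1, 203 and 263 without day 0 library 2, and 325 and 514 without day 2 library 1.

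**Figure D1:**
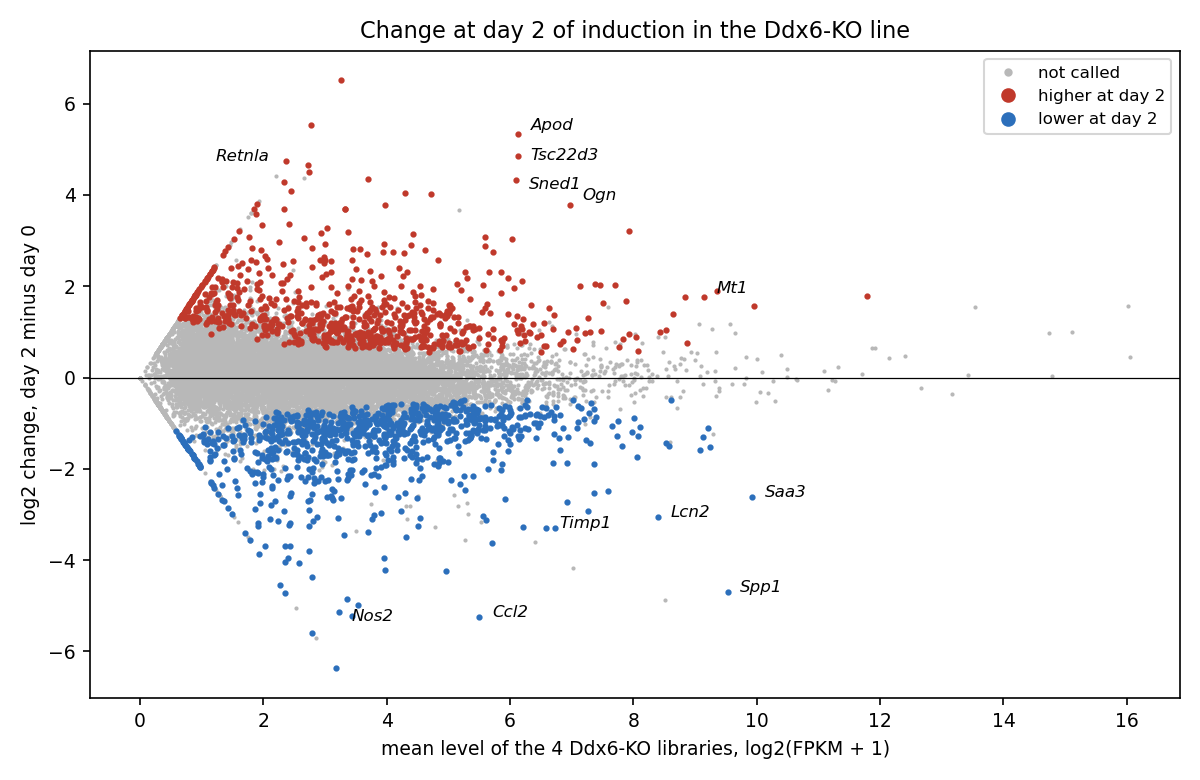
Change of each of the 15811 genes in the Ddx6-KO line, day 2 minus day 0, against its mean level in the 4 Ddx6-KO libraries, both on the log2(FPKM + 1) scale. Red and blue points are the 759 higher and 925 lower genes, grey points were not called, and Apod, Tsc22d3, Ogn, Spp1, Ccl2 and Saa3 lie far from 0 at high levels.

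Among protein-coding genes, called falls grew more frequent with the mean level over all 8 libraries, up to 1000 FPKM. Between 5 and 20 FPKM, 5.70% of 5068 genes were higher and 7.14% lower. Between 20 and 100 FPKM, 9.57% of 1755 genes were higher and 16.5% lower, and between 100 and 1000 FPKM these shares were 16.2% and 23.3% of 210 genes. Under 1 FPKM, 1.34% of 1118 genes were called in each direction. Of 407 lincRNAs, 16 were higher (3.93%) and 6 lower (1.47%), both shares below the 4.8% and 5.85% of all genes tested.

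Some genes were near 0 on 1 day. A total of 25 genes were under 1 FPKM in both day 0 libraries and at 5 FPKM or more in both day 2 libraries, 19 of them protein coding, and 24 of the 25 were called higher. The reverse held for 32 genes, 20 of them protein coding, and 28 of these were called lower. Rps12, which encodes a ribosomal protein that every cell uses, was listed at 0 FPKM in all 4 Ddx6-KO libraries, so a value of 0 in this table can be a failed estimate.

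Over all genes tested the log2 change ranged from −6.37 to 6.51. Among called protein-coding genes with an official symbol, the largest rises were led by Apod, which encodes the lipocalin apolipoprotein D. Its level was 467 and 424 FPKM at day 2, against 8.61 and 11.6 FPKM at day 0. This is a ratio of mean FPKM of 44.01-fold, and a log2 change of 5.34 (SE 0.16, adjusted p = 2.41e-05). Tsc22d3, the glucocorticoid-induced leucine zipper, was at 371 and 381 FPKM at day 2, against 13.1 and 11.0002 FPKM at day 0, a log2 change of 4.86 (SE 0.16, adjusted p = 2.41e-05). Sned1, which encodes an extracellular matrix protein, reached 320.5 and 292 FPKM at day 2, against 13.9 and 14.8 FPKM at day 0. Both day 2 libraries lay far above both day 0 libraries for these 3 genes, and the choice of genes required that they not overlap.

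Several other genes among the 12 largest rises were near the floor before induction. Retnla, a secreted resistin-like protein, was at 25.99 and 25.9 FPKM at day 2 and listed at 0 in both day 0 libraries (adjusted p = 6.97e-05). Dio2, the deiodinase that makes active thyroid hormone, was at 33.1 and 28.5 FPKM at day 2, against 0.464 and 0.343 FPKM at day 0. Cxcl13, a B cell chemokine, was at 33.9 and 30.5 FPKM at day 2, against 0.352 and 0.279 FPKM at day 0. Serpina3n, a serine protease inhibitor of a cluster of similar genes, rose by 4.35 (adjusted p = 4.79e-05), and the aldehyde dehydrogenases Aldh1a7 and Aldh3a1 rose by 4.08 and 4.04. The rest were the ribonuclease gene Ear2 (4.28), Ctla2a (4.03), which encodes a cysteine protease inhibitor, and Rtl3, a retrotransposon-derived gene at 13.96 and 11.8 FPKM at day 2 and listed at 0 at day 0. Ear2, Ctla2a, Serpina3n and Aldh1a7 have close paralogs, between which reads could have been split.

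The 12 largest falls, also among called protein-coding genes with an official symbol, held 4 chemokine genes and the growth factor gene Csf2. Ccl2, the monocyte attractant, was at 5.13 and 7.80 FPKM at day 2, against 339.9 and 229.6 FPKM at day 0, a log2 change of −5.25 (SE 0.30, adjusted p = 1.36e-04). Ccl7 was at 6.27 and 6.11 FPKM at day 2, against 147 and 123 FPKM at day 0, and Ccl3 at 1.11 and 0 FPKM at day 2, against 29.9 and 18.2 FPKM at day 0. Csf2, which encodes GM-CSF, was listed at 0 in both day 2 libraries and stood at 28.3 and 22.4 FPKM at day 0 (adjusted p = 1.51e-04), and Ccl8 was listed at 0 at day 2 and stood at 15.9 and 11.7 FPKM at day 0 (adjusted p = 0.00137). For each of these genes, both day 2 libraries were below both day 0 libraries, which the choice of genes required.

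The other 7 of the largest falls were Spp1, Nos2, Serpinb2, Ptgs2, Prl2c2, Isg15 and Ifi27l2a. Spp1 (osteopontin, a matrix protein that also acts as a cytokine) was at 139 and 149.7 FPKM at day 2, against 3891 and 3639.8 FPKM at day 0, a log2 change of −4.69 (SE 0.13, adjusted p = 2.41e-05). Nos2, the inducible nitric oxide synthase, was at 0.666 and 0.488 FPKM at day 2, against 56.1 and 53.1 FPKM at day 0. Serpinb2, an inhibitor of plasminogen activators, was at 0.371 and 1.30 FPKM at day 2, against 67.2 and 63.4 FPKM at day 0. Ptgs2, the inducible cyclooxygenase of prostaglandin synthesis, was at 3.04 and 2.84 FPKM at day 2, against 61.8 and 57.5 FPKM at day 0. Day 2 libraries were low and close to each other for Spp1, Nos2 and Ptgs2. Prl2c2, a proliferin with near-identical neighbours, fell by 4.22 (adjusted p = 6.32e-05). The interferon-induced genes Isg15 and Ifi27l2a fell by 4.37 and 4.86. Ifi27l2a lost its call without either day 0 library or day 2 library 1 (highest adjusted p = 0.112).

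**Figure D2:**
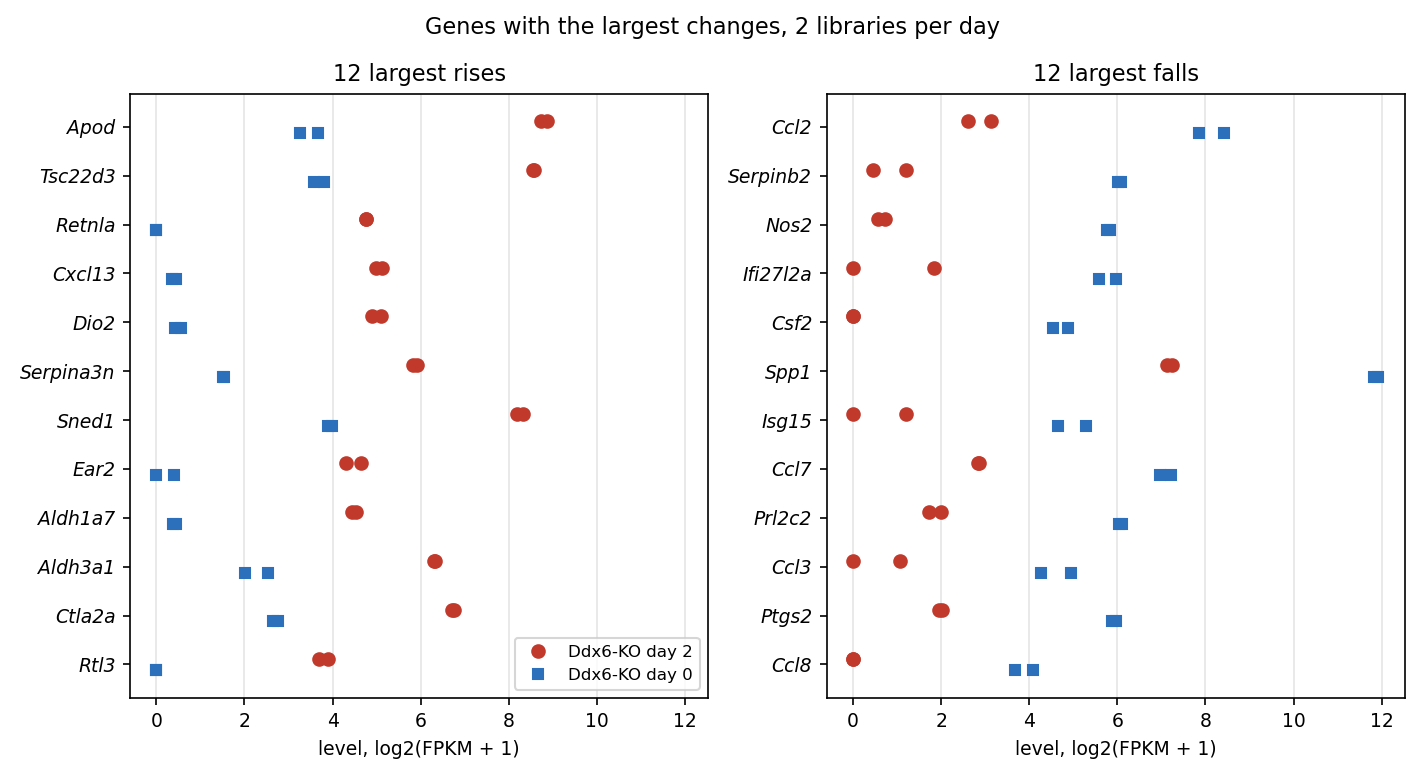
Levels of the 12 largest rises and the 12 largest falls among called protein-coding genes with an official symbol, as log2(FPKM + 1). Each Ddx6-KO library is 1 point (red circles for day 2, blue squares for day 0). The libraries of a day do not overlap with those of the other day for any of the 24 genes, as the choice of these genes required, and Csf2 and Ccl8 at day 2 and Retnla and Rtl3 at day 0 are at 0.

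Of 22 genes that glucocorticoids induce 21 were tested, and 11 rose and 2 fell, with a median change of 1.01 against 0.09 for all genes tested. Apart from Tsc22d3, Glul (glutamine synthetase) was at 142 and 129 FPKM at day 2, against 20.9 and 17.7 FPKM at day 0, a log2 change of 2.75 (adjusted p = 1.36e-04). The metallothionein gene Mt1 was at 1061 and 1023 FPKM at day 2, against 273 and 343 FPKM at day 0, while its neighbour Mt2 fell by 0.81 (adjusted p = 0.0102). Fkbp5, which encodes a co-chaperone of the glucocorticoid receptor, was at 65.6 and 48.6 FPKM at day 2, against 6.77 and 6.57 FPKM at day 0, and the phosphatase gene Dusp1 at 32.8 and 24.2 FPKM at day 2, against 3.10 and 3.14 FPKM at day 0. Errfi1, an inhibitor of EGF receptor signalling, rose by 1.52 (adjusted p = 7.11e-04). Lcn2, a lipocalin that inflammatory signals also induce, went the other way at 120.3 and 112 FPKM at day 2, against 1052 and 895 FPKM at day 0, a log2 change of −3.06 (SE 0.13, adjusted p = 6.32e-05). After TPM rescaling 7 members were higher and 4 lower, and without day 0 library 1 or library 2 the higher members numbered 6 and 7. Mt2 lost its call without either day 0 library (highest adjusted p = 0.0907).

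Cyclic AMP-responsive genes split into rises and falls. Of 24 listed genes 20 were tested, 5 were higher and 4 lower, and the median was 0.21, or −0.06 after TPM rescaling. Rgs2, a regulator of G protein signalling, was at 151 and 130.2 FPKM at day 2, against 15.3 and 15.9 FPKM at day 0 (3.09 on the log2 scale, adjusted p = 7.99e-05). The phosphodiesterase genes Pde4d and Pde4b, whose products break down cyclic AMP, rose by 2.92 and 2.25, and Sik1, a kinase gene that cyclic AMP induces, rose by 1.52. Ppargc1a, a coactivator of mitochondrial genes, was at 12.2 and 12.9 FPKM at day 2, against 1.57 and 1.08 FPKM at day 0 (adjusted p = 0.00965). Ppargc1a lost its call without any single Ddx6-KO library (highest adjusted p = 0.0881). Ptgs2, Il6, Junb and Prkar2b, a regulatory subunit of protein kinase A, were the 4 members that fell. Their products are, apart from Prkar2b, also tied to inflammatory or immediate early responses. The octamer TGACGTCA, the cyclic AMP element, was found in the promoter of 2 of 21 listed genes with a RefSeq promoter (250 bases before to 50 bases after the start), against 2.03% of all 27025 genes in that table. Neither of these 2 genes was among the members named above.

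In the insulin and IGF axis, 5 of 19 tested genes were higher and 3 lower (3 and 3 after TPM rescaling). Pik3r1, the regulatory subunit of PI3-kinase, was at 67.1 and 74.1 FPKM at day 2, against 15.96 and 16.7 FPKM at day 0 (2.05, adjusted p = 5.58e-04), and the insulin receptor substrate gene Irs2 rose by 1.25 (adjusted p = 0.0147). Igf1 was at 4.69 and 4.10 FPKM at day 2, against 20.3 and 21.7 FPKM at day 0, a log2 change of −2.03 (adjusted p = 0.00299). The glucose transporter gene Slc2a1 and the IGF-binding protein gene Igfbp7 fell by 1.88 and 1.29. The higher members numbered 1 without day 0 library 1 or without day 2 library 1, 2 without day 2 library 2 and 3 without day 0 library 2. Irs2 lost its call without day 0 library 1 or either day 2 library (highest adjusted p = 0.107).

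First-wave factors of adipogenesis rose in part. Of 21 tested, 5 were higher and 2 lower. Klf5, a Krüppel-like factor that acts downstream of C/EBPβ and C/EBPδ, was at 25.4 and 18.9 FPKM at day 2, against 3.58 and 4.78 FPKM at day 0 (2.15, adjusted p = 0.00286). Cebpd was at 298 and 313 FPKM at day 2, against 172 and 168 FPKM at day 0 (0.84, adjusted p = 0.00875) and Klf9 rose by 1.01 (adjusted p = 0.00770). Cebpb was at 76.8 and 80.4 FPKM at day 2, against 67.9 and 67.3 FPKM at day 0, a log2 change of 0.21 (adjusted p = 0.349). Nfia and Nfib, nuclear factors that open chromatin early in adipogenesis, rose by 1.54 and 1.43, while Junb and Fosl1 of the AP-1 family fell by 1.21 and 1.11. Cebpd lost its call without either day 0 library (highest adjusted p = 0.0775), Klf9 lost its call without either day 0 library (highest adjusted p = 0.0745), Nfia lost its call without any single Ddx6-KO library or either TOM day 2 library (highest adjusted p = 0.225), Nfib lost its call without any single Ddx6-KO library (highest adjusted p = 0.117), Junb lost its call without either day 0 library (highest adjusted p = 0.0809), and Fosl1 lost its call without either day 0 library or day 2 library 2 or either TOM day 2 library (highest adjusted p = 0.202). Cebpd, Klf9 and Nfia were also lost after TPM rescaling. The list, with a median of 0.31 or −0.07 after TPM rescaling, gave 2 higher and 4 lower members after TPM rescaling, 1 higher and none lower without day 0 library 1 or without day 0 library 2, and 3 higher with 2 and 1 lower without day 2 library 1 and library 2. Without TOM day 2 library 1 or library 2, 4 were higher and 1 lower.

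Of the second wave, 2 of 9 tested members were higher and none lower. Pparg, the master regulator of fat-cell genes, was at 3.16 and 2.32 FPKM at day 2, against 2.98 and 4.08 FPKM at day 0, and its partner Cebpa at 0.271 and 0.159 FPKM at day 2, against 0.141 and 0.336 FPKM at day 0. Their log2 changes were −0.28 and −0.02 (adjusted p = 0.532 and adjusted p = 0.971). At the depth of the day 2 libraries these levels rest on few fragments, so a modest change could not have been detected. Ppargc1a and Rxra were the members that rose, Rxra at 43.5 and 42.6 FPKM at day 2, against 25.2 and 13.4 FPKM at day 0, and no member was called without day 0 library 2, day 2 library 1 or day 2 library 2, and 1 without any other single library. Ppargc1a lost its call without any single Ddx6-KO library (highest adjusted p = 0.0881), and Rxra lost its call without day 0 library 2 or either day 2 library or any single TOM library (highest adjusted p = 0.118). Rxra was also lost after TPM and median-ratio scaling.

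Of 18 tested markers of mature adipocytes, none was called higher and 2 were lower in limma, and at an unadjusted p under 0.05 the counts were 2 and 5. Fabp4, the fatty acid carrier of fat cells, was at 8.03 and 4.66 FPKM at day 2, against 27.5 and 26.6 FPKM at day 0, a log2 change of −1.97 (SE 0.22, adjusted p = 0.00233). In TOM cells Fabp4 was at 520.1 and 496 FPKM at day 2, against 17.5 and 21.1 FPKM at day 0. The change in Ddx6-KO cells minus that in TOM cells was −6.63 (SE 0.32, adjusted p = 2.29e-04). Adipoq, the adiponectin gene, was at 1.77 and 1.03 FPKM at day 2, against 0.462 and 0.244 FPKM at day 0, and Lpl, the lipoprotein lipase gene, at 12.2 and 12.8 FPKM at day 2, against 9.94 and 12.9 FPKM at day 0. Dgat2, which makes triglyceride, was the other member that fell (−0.81, adjusted p = 0.0441). Dgat2 lost its call without any single Ddx6-KO library or any single TOM library (highest adjusted p = 0.206). Without any 1 of the TOM libraries or of the day 0 Ddx6-KO libraries, 1 marker was lower. After TPM rescaling 5 were lower.

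Negative regulators of adipogenesis moved in both directions, with 3 of 23 tested higher and 2 lower. Dlk1 (Pref-1), a preadipocyte membrane protein, was at 27.9 and 13.5 FPKM at day 2, against 70.3 and 57.01 FPKM at day 0 (−1.65, adjusted p = 0.0294). Ddit3, which encodes the C/EBP inhibitor CHOP, was at 11.6 and 9.78 FPKM at day 2, against 35.9 and 47.96 FPKM at day 0 (−1.87, adjusted p = 0.00127). Zfp521, a repressor of the early adipogenic program, rose by 1.07 (adjusted p = 0.0116), and Id3, an inhibitor of helix-loop-helix factors, by 1.44 (adjusted p = 0.0351). Dlk1 lost its call without either day 0 library or day 2 library 2 or either TOM day 2 library (highest adjusted p = 0.183), Zfp521 lost its call without either day 0 library (highest adjusted p = 0.0912), and Id3 lost its call without any single Ddx6-KO library or either TOM day 2 library (highest adjusted p = 0.190). Id3 was also lost after TPM and median-ratio scaling. Ddit3 alone was lower without day 0 library 1 or library 2, and then no member was higher. The median was 0.34, or −0.04 after TPM rescaling. A single member was higher without either day 2 library, without either TOM day 2 library (with 1 lower), after TPM rescaling (with 3 lower) and after median-ratio scaling.

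**Figure D3:**
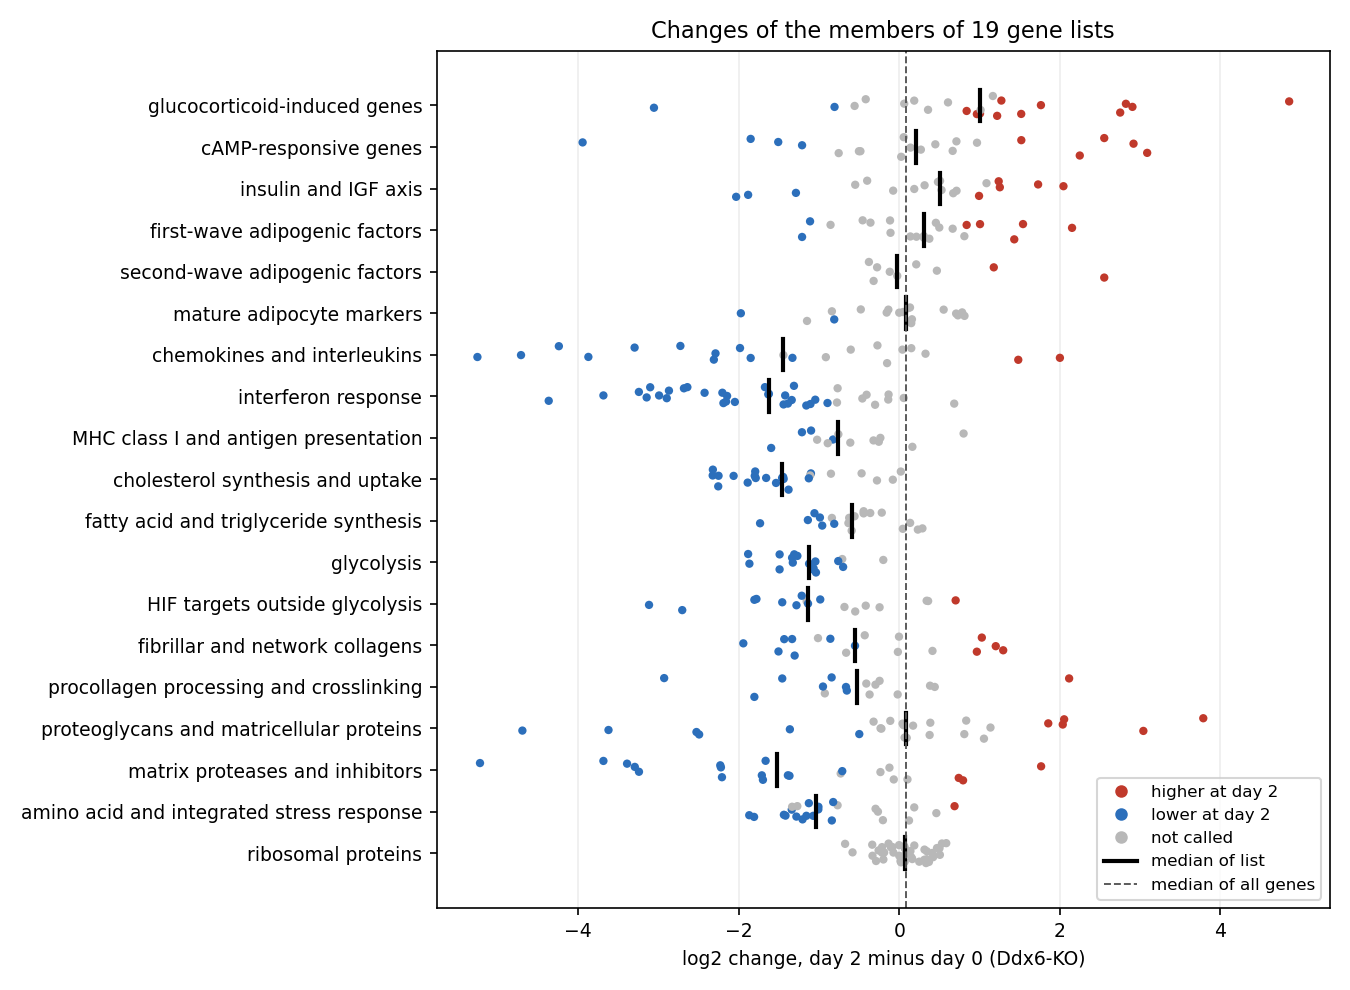
Log2 change of each tested member of 19 gene lists in the Ddx6-KO line, day 2 minus day 0, with 1 point per gene (red, higher; blue, lower; grey, not called) and a black bar at the median of the list. The dashed line is the median of all genes, 0.09, and the glucocorticoid list (1.01) lies right of it while interferon response (−1.62), matrix proteases (−1.53), cholesterol synthesis (−1.46) and glycolysis (−1.12) lie left of it.

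Falls outnumbered rises among chemokines and interleukins. Of 21 tested, 11 were lower and 2 higher, with a median change of −1.44. The neutrophil attractants Cxcl5 and Cxcl1 were at 35.3 and 30.9 FPKM at day 2, against 362 and 306 FPKM at day 0 and at 46.2 and 46.1 FPKM at day 2, against 306 and 317 FPKM at day 0. Log2 changes were −3.30 and −2.73 (adjusted p = 1.08e-04 and adjusted p = 6.32e-05). Il6 was at 4.06 and 3.42 FPKM at day 2, against 16.2 and 15.9 FPKM at day 0, Csf1 fell by 1.33, and Il1rl1, which encodes the receptor of interleukin 33, fell by 1.98. The 2 that rose were Ccl9 (2.00, adjusted p = 0.00876) and Il1rn (1.48, adjusted p = 0.0323), the natural antagonist of interleukin 1. Cxcl12, a chemokine of stromal cells, was at 76.99 and 72.5 FPKM at day 2, against 72.7 and 72.5 FPKM at day 0. The lower members numbered 9 to 12 over fits without 1 library, and the higher members 0 without day 0 library 2 and 1 without any other single library. Csf1 lost its call without day 0 library 2 (adjusted p = 0.0513), Ccl9 lost its call without day 0 library 2 or day 2 library 1 (highest adjusted p = 0.0709), and Il1rn lost its call without either day 0 library or day 2 library 2 or any single TOM library (highest adjusted p = 0.191). Il1rn was also lost after TPM rescaling.

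Falls also outnumbered rises among genes of prostaglandins, and the acute-phase gene Saa3 was lower. Saa3, which encodes a serum amyloid A protein, was at 343 and 445 FPKM at day 2, against 2650.4 and 2195 FPKM at day 0 (−2.62, adjusted p = 2.71e-04). Of 18 tested genes of prostaglandins and lipid mediators, 6 fell and 2 rose, or 9 and 2 with TPM rescaling. Ptgs1, the constitutive cyclooxygenase, fell by 1.12 and the prostaglandin E synthase gene Ptges by 0.95. Ptgfr, the receptor of prostaglandin F2α, was at 15.9 and 16.3 FPKM at day 2, against 3.41 and 3.20 FPKM at day 0, a rise of 1.99 (adjusted p = 4.36e-04). Leaving out either day 0 library gave 2 lower and 2 higher genes of this list. Ptgs1 lost its call without any single Ddx6-KO library (highest adjusted p = 0.109), and Ptges lost its call without any single Ddx6-KO library (highest adjusted p = 0.154). The 12 leukocyte markers summed to 8.55 and 9.83 FPKM at day 2, against 17.5 and 15.8 FPKM at day 0. Of these, 5 and 4 markers were listed at 0 at day 2, against 3 and 5 at day 0, Tyrobp was at 0 in all 4 libraries, and Cd14 at 3.80 and 4.17 FPKM at day 2, against 10.01 and 7.83 FPKM at day 0 was the main contributor. Laptm5 was also lower, listed at 0 in both day 2 libraries, against 3.46 and 4.95 FPKM at day 0. Cd68 went the other way, at 2.37 and 0.734 FPKM at day 2, against 0.206 and 0 FPKM at day 0. A smaller set of 5 of these markers, Cd68 among them, summed to 3.47 and 2.24 FPKM at day 2, against 0.994 and 1.63 FPKM at day 0. The part of leukocytes in these falls was not tested.

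Most interferon response genes fell. All 37 were tested, 28 were lower and none higher, with a median of −1.62, and no member was higher at an unadjusted p under 0.05. Ifi44 was at 1.08 and 1.26 FPKM at day 2, against 27.6 and 13.7 FPKM at day 0 and Ifit3 at 1.69 and 1.24 FPKM at day 2, against 21.6 and 13.8 FPKM at day 0, and both are induced by type I interferon. Log2 changes were −3.24 and −2.90 (adjusted p = 0.00105 and adjusted p = 0.00127). Stat2, which carries the interferon signal to the nucleus, fell by 1.63, and the interferon regulatory factor genes Irf7 and Irf9 by 3.10 and 2.16. Bst2 (tetherin), which was not called, was at 46.6 and 42.8 FPKM at day 2, against 71.9 and 49.3 FPKM at day 0 (−0.41, adjusted p = 0.358). Without day 0 library 1, 13 members were lower, and without day 2 library 2, 23 were lower and 1 higher. Many of these genes belong to families of close paralogs, between which reads could have been split.

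The promoters of this list often held the letters of the interferon element. GAAANNGAA on either strand was found in the RefSeq promoters (GRCm38.p6) of 17 of 27 members with a promoter in the table, or 63.0%, against 9.76% of all 27025 genes. Of 10 genes of MHC class I and antigen presentation 4 held it. Shown are 60 bases around the match nearest to the start site for 3 members that fell, on the strand of the gene, with the motif or its reverse complement in capitals.
Isg15 (chr4:156200850-156200909, minus strand): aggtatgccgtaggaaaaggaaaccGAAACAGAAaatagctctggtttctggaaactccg
Ifit3 (chr19:34583402-34583461, plus strand): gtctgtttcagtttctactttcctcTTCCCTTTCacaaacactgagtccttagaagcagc
Ifi44 (chr3:151749879-151749938, minus strand): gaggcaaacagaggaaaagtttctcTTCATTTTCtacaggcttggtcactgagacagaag
The matches begin 66 bases before the start in Isg15, 102 in Ifit3 and 3 in Ifi44, and Isg15 and Ifit3 held 3 matches each.

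Some genes of MHC class I and antigen presentation fell. Of 13 tested, 4 were lower and none higher (8 and 1 at an unadjusted p under 0.05), and 7 were lower after TPM rescaling, while 2 were lower without day 0 library 1. B2m, the light chain of class I molecules, was at 330.3 and 291 FPKM at day 2, against 1045 and 842 FPKM at day 0 (−1.60, adjusted p = 0.00119). The heavy chain genes H2-K1 and H2-D1 fell by 1.10 and 0.82, and Tapbp, which loads peptides, by 1.21. H2-K1 lost its call without day 0 library 1 (adjusted p = 0.0730), and H2-D1 lost its call without either day 0 library or day 2 library 1 (highest adjusted p = 0.103).

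Cholesterol synthesis fell along the pathway. Of 24 genes 23 were tested, 17 were lower and none higher, with a median of −1.46. At the entry of the pathway, Hmgcs1 (HMG-CoA synthase) was at 29.9 and 28.7 FPKM at day 2, against 118 and 105 FPKM at day 0 (−1.89, SE 0.13, adjusted p = 2.71e-04). In the late steps, Msmo1 was at 15.1 and 15.4 FPKM at day 2, against 84.4 and 76.7 FPKM at day 0 and Sc5d at 16.8 and 11.9 FPKM at day 2, against 75.1 and 67.7 FPKM at day 0. Insig1, which retains the SREBP complex in the ER when sterols are high, fell by 1.79. Libraries of a day were close to each other for Hmgcs1 and Msmo1. The lower members numbered 10 without either day 0 library.

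The sterol element CACCCCAC was found in 2 of 16 listed genes with a promoter in the table, Hmgcs1 and Acat2, against 3.30% of all genes. Both fell, Acat2 by 1.10 (adjusted p = 0.0209), and their windows are given with the motif in capitals.
Hmgcs1 (chr13:119690189-119690248, plus strand): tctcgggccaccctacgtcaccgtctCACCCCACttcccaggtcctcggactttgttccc
Acat2 (chr17:12960873-12960932, minus strand): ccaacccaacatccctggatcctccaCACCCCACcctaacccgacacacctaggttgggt
The match begins 136 bases before the start in Hmgcs1 and 181 in Acat2. Acat2 lost its call without any single Ddx6-KO library (highest adjusted p = 0.151).

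Fatty acid and triglyceride synthesis genes fell in part, with 6 of 19 tested lower and none higher (10 and 0 at an unadjusted p under 0.05). Scd1, the stearoyl-CoA desaturase, was at 8.32 and 8.50 FPKM at day 2, against 31.3 and 29.3 FPKM at day 0 (−1.73, adjusted p = 9.20e-04), and its paralog Scd2 at 61.9 and 58.4 FPKM at day 2, against 122 and 119 FPKM at day 0. Acly, which makes cytosolic acetyl-CoA, fell by 1.14. Fasn, the fatty acid synthase, was at 30.8 and 14.4 FPKM at day 2, against 19.3 and 15.1 FPKM at day 0 and had no change that could be detected (0.29, adjusted p = 0.633). The lower members numbered 11 after TPM rescaling, 2 without day 0 library 1 or library 2 and 3 without day 2 library 1. Acly lost its call without either day 0 library (highest adjusted p = 0.0882).

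Most glycolysis genes fell, at entry, middle and last steps of the pathway. Of 18 genes 17 were tested, 15 were lower and none higher, with a median of −1.12 (−1.51 after TPM rescaling). Slc2a1 (GLUT1), which brings in glucose, was at 13.9 and 13.99 FPKM at day 2, against 52.8 and 55.4 FPKM at day 0, and the hexokinase genes Hk1 and Hk2 fell by 1.27 and 1.12. Tpi1 was at 130.2 and 135 FPKM at day 2, against 385 and 364 FPKM at day 0 and Eno1 at 25.6 and 23.9 FPKM at day 2, against 66.6 and 60.3 FPKM at day 0. Ldha, the last step to lactate, was at 59.4 and 65.5 FPKM at day 2, against 237 and 223 FPKM at day 0 (−1.87, SE 0.13, adjusted p = 3.41e-04). Gapdh was listed at 9.08 and 8.72 FPKM at day 2, against 29.9 and 19.2 FPKM at day 0 and like several members it has processed pseudogenes between which reads could have been split. There were 7 lower members without day 0 library 1, and 9 without day 0 library 2 or day 2 library 2. Hk2 lost its call without either day 0 library or day 2 library 2 (highest adjusted p = 0.114), and Gapdh lost its call without day 0 library 1 or either day 2 library (highest adjusted p = 0.0814).

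Targets of the hypoxia-inducible factor (HIF) outside glycolysis also had more falls than rises, with 9 of 17 tested lower and 1 higher and a median of −1.14. Ero1l, an oxidase of protein folding in the ER, was at 16.1 and 15.2 FPKM at day 2, against 135 and 152 FPKM at day 0 (−3.12, adjusted p = 1.36e-04). Egln3, a prolyl hydroxylase that marks HIF for decay, was at 9.92 and 12.4 FPKM at day 2, against 39.8 and 41.3 FPKM at day 0, and Vegfa, the angiogenic growth factor, at 48.7 and 42.8 FPKM at day 2, against 122 and 104 FPKM at day 0. The collagen prolyl hydroxylase subunits P4ha1 and P4ha2 fell by 1.46 and 1.80. The member that rose, the histone demethylase gene Kdm3a (0.70, adjusted p = 0.0340), was not called after TPM or median-ratio scaling. Vegfa lost its call without day 0 library 1 (adjusted p = 0.0561), and Kdm3a lost its call without any single Ddx6-KO library or either TOM day 2 library (highest adjusted p = 0.196). Without day 0 library 1 and library 2, 5 and 6 members were lower. TACGTG, 1 form of the hypoxia element and the only form searched, was found in 5 of 14 promoters of this list. It was found in 4 of 18 promoters of the glycolysis list, against 3.67% of all genes. Windows of 3 members that fell are shown with the motif or its reverse complement in capitals.
P4ha1 (chr10:59323253-59323312, plus strand): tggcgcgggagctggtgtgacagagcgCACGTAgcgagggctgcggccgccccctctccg
P4ha2 (chr11:54100818-54100877, plus strand): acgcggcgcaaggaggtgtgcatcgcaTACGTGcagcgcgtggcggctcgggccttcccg
Egln1 (chr8:124949291-124949350, minus strand): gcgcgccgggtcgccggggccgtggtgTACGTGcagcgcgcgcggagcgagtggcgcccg
These matches begin 16, 79 and 69 bases before the start, and Egln1, the main HIF prolyl hydroxylase, fell by 0.98 (adjusted p = 0.0205). Egln1 lost its call without either day 0 library or day 2 library 2 (highest adjusted p = 0.131).

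Genes of the extracellular matrix moved in both directions. Of 26 proteoglycans and matricellular proteins tested, 5 were higher and 6 lower. Ogn (osteoglycin), a small leucine-rich proteoglycan, was at 459 and 469 FPKM at day 2, against 31.8 and 33.6 FPKM at day 0 (3.79, SE 0.14, adjusted p = 4.79e-05), and its relative Aspn (asporin) at 195 and 180.2 FPKM at day 2, against 22.7 and 21.1 FPKM at day 0. Postn and Vcan rose by 2.04 and 2.05. Dcn (decorin), of the same family as Ogn, was at 85.5 and 74.9 FPKM at day 2, against 460.0 and 449.7 FPKM at day 0 (−2.49, adjusted p = 1.56e-04), Tnc (tenascin C) at 14.8 and 13.03 FPKM at day 2, against 204 and 163 FPKM at day 0, and the thrombospondin genes Thbs1 and Thbs2 fell by 2.53 and 1.36. Members of a single family thus stood on both sides.

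Collagen genes moved in both directions, also within a type. Of 17 tested, 4 were higher and 7 lower (2 and 10 after TPM rescaling, when Col4a2 and Col6a1 were not called). The basement membrane genes Col4a1 and Col4a2 rose together, Col4a1 at 239 and 242 FPKM at day 2, against 95.4 and 99.7 FPKM at day 0 (1.30, adjusted p = 0.00146) and Col4a2 by 0.97. Col4a5 was at 12.2 and 15.2 FPKM at day 2, against 56.7 and 53.4 FPKM at day 0 and fell (−1.94, adjusted p = 0.00112). Col6a1 and Col6a2 rose by 1.03 and 1.20, whereas Col6a3, another chain of type VI collagen, was at 58.4 and 48.3 FPKM at day 2, against 136 and 135 FPKM at day 0 and fell (−1.33, adjusted p = 0.00148). Col3a1, the most abundant member in FPKM and not called, was at 1133 and 1251 FPKM at day 2, against 853 and 935 FPKM at day 0 (0.41, adjusted p = 0.156). With either day 0 library left out, 2 members were higher and 4 lower. Col4a2 lost its call without either day 0 library or day 2 library 1 (highest adjusted p = 0.0730), and Col6a2 lost its call without either day 0 library (highest adjusted p = 0.0513).

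Of 16 enzymes and helpers of collagen processing tested, 7 were lower and 1 higher. P3h2, a prolyl hydroxylase, was at 1.07 and 0.630 FPKM at day 2, against 11.1 and 15.2 FPKM at day 0, and the collagen chaperone gene Serpinh1 fell by 0.95. Adamts2, which removes the propeptide of procollagen, was the member that rose, at 26.3 and 27.9 FPKM at day 2, against 5.46 and 5.52 FPKM at day 0 (2.12, adjusted p = 3.41e-04). Without day 0 library 1, day 0 library 2 or day 2 library 1, 3 members were lower. Serpinh1 lost its call without either day 0 library or day 2 library 1 (highest adjusted p = 0.0797).

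Proteases of the matrix and their inhibitors were lower in 14 and higher in 3 of 22 tested genes, with a median of −1.53. The stromelysin Mmp3 was at 2.87 and 3.12 FPKM at day 2, against 47.2 and 35.3 FPKM at day 0 (−3.39, adjusted p = 1.56e-04) and the collagenase Mmp13 at 9.07 and 8.44 FPKM at day 2, against 45.1 and 44.4 FPKM at day 0. The inhibitor Timp1 was at 30.1 and 29.5 FPKM at day 2, against 299.9 and 302 FPKM at day 0, so that it was high at day 0 and low at day 2 (−3.29, adjusted p = 6.53e-05). Mmp2, gelatinase A, was the most abundant member in FPKM and rose, at 882 and 807 FPKM at day 2, against 257 and 238 FPKM at day 0 (1.77, adjusted p = 3.14e-04), as did its activator Mmp14 (0.80) and Adamts1 (0.74). TPM rescaling left Mmp2 alone higher and gave 15 lower genes, and without day 0 library 1 or library 2, 1 was higher and 10 were lower. Mmp14 lost its call without either day 0 library (highest adjusted p = 0.0674), and Adamts1 lost its call without any single Ddx6-KO library (highest adjusted p = 0.138).

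Genes of amino acid supply and the integrated stress response were lower in 14 and higher in 1 of 24 tested, with a median of −1.04. Atf4, the transcription factor of this response, was at 29.2 and 30.4 FPKM at day 2, against 76.2 and 77.5 FPKM at day 0 (−1.34, adjusted p = 0.00137). Its known targets Aars, Psat1 and Asns, which act in tRNA charging, serine and asparagine synthesis, fell by 1.42, 1.16 and 1.01. Slc3a2, the heavy chain of amino acid transporters, was the member that rose (0.69, adjusted p = 0.0249), and after TPM or median-ratio scaling none was higher. The lower members numbered 6, 4 and 9 without day 0 library 1, day 0 library 2 and day 2 library 1. Asns lost its call without any single Ddx6-KO library (highest adjusted p = 0.186), and Slc3a2 lost its call without either day 0 library or day 2 library 2 (highest adjusted p = 0.147).

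Surface markers of preadipocytes were lower in 8 and higher in 1 of 16 tested genes. Pdgfra, the PDGF receptor of fat-cell precursors, was at 129 and 118 FPKM at day 2, against 52.3 and 55.6 FPKM at day 0 (1.18, adjusted p = 0.00154) and was the member that rose, while the related Pdgfrb fell by 0.68. Cd9 was at 36.7 and 37.5 FPKM at day 2, against 97.99 and 86.4 FPKM at day 0 (−1.29, adjusted p = 0.00147). Without day 0 library 1 or library 2, 1 member was lower, and without day 2 library 1, day 2 library 2 and either TOM day 2 library, 3, 4 and 5 were lower. Of 13 mesenchymal transcription factors tested, 5 were higher and none lower, in limma and at an unadjusted p under 0.05 (7 and 0). Osr1 was at 22.5 and 23.2 FPKM at day 2, against 9.25 and 7.18 FPKM at day 0 (1.38, adjusted p = 0.00317), Prrx2 at 47.9 and 44.7 FPKM at day 2, against 24.2 and 18.7 FPKM at day 0, and after TPM rescaling 2 were higher, without Prrx2. The higher members numbered 2, 1 and 2 without day 0 library 1, day 0 library 2 and day 2 library 1. Pdgfrb lost its call without any single Ddx6-KO library or either TOM day 0 library (highest adjusted p = 0.195), and Prrx2 lost its call without day 0 library 2 (adjusted p = 0.0610).

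Most genes of cell division did not pass the test. Of 28 mitosis genes tested, 5 were lower and 1 higher, and of 30 DNA replication genes 4 were lower and none higher. Among all genes 5.85% were lower and 4.8% higher. At an unadjusted p under 0.05, 14 mitosis genes were lower and 1 higher, and 5 DNA replication genes were lower and 1 higher. Of all 15811 genes, 1940 were lower and 2122 higher at that threshold. The median change was −0.58 for mitosis and −0.29 for DNA replication, against 0.09 for all genes tested, so the mitosis list leaned downward. Top2a, which untangles DNA, was at 87.01 and 103 FPKM at day 2, against 19.8 and 25.2 FPKM at day 0 (2.03, adjusted p = 0.00105) and was the member that rose. Anln and Ccnb2, genes of cytokinesis and mitotic entry, fell by 1.36 and 1.18. Of 16 inhibitors of the cycle and p53 targets tested, 2 were higher and 3 lower, or 1 and 5 after TPM rescaling. Cdkn1a (p21) fell by 1.15 (adjusted p = 0.00539), Cdkn2a by 1.24 (adjusted p = 0.0157) and Cdkn2b by 1.01 (adjusted p = 0.0126). Both Cdkn2a and Cdkn2b lost their calls without either day 0 library or day 2 library 1. Trp53inp1, a p53 target, was at 135 and 125 FPKM at day 2, against 17.4 and 16.2 FPKM at day 0, a rise of 2.88 (SE 0.14, adjusted p = 6.97e-05). The mitosis list was sensitive to the settings, with 15 lower after TPM rescaling, none lower without day 0 library 1 or library 2, 2 without day 2 library 1 or either TOM day 2 library, and 3 without either TOM day 0 library. For DNA replication the lower members numbered 1, 0 and 0 without day 0 library 1, day 0 library 2 and day 2 library 1, 1 without either TOM day 2 library and 2 without either TOM day 0 library. Anln lost its call without either day 0 library (highest adjusted p = 0.0750), Ccnb2 lost its call without either day 0 library or day 2 library 1 (highest adjusted p = 0.128), and Cdkn1a lost its call without either day 0 library (highest adjusted p = 0.0598).

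**Figure D4:**
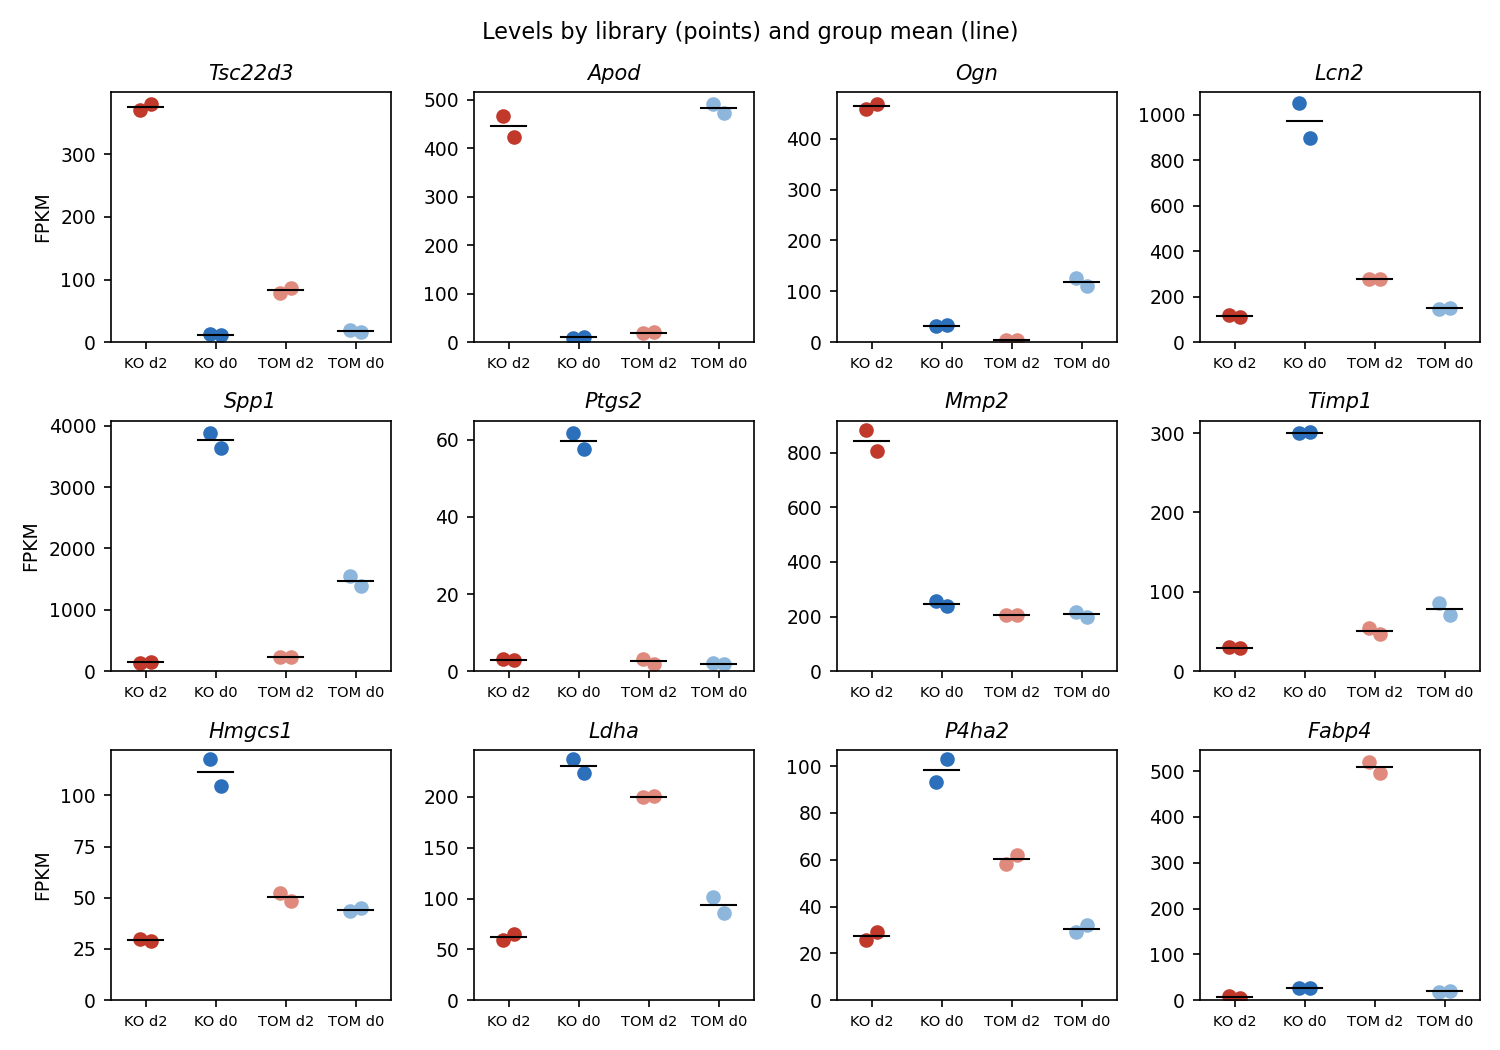
FPKM of 12 genes in every library (points) with the group mean (line), for Ddx6-KO day 2, Ddx6-KO day 0, TOM day 2 and TOM day 0 from left to right. Spp1, Ptgs2, Timp1 and Hmgcs1 are highest in Ddx6-KO cells at day 0, Tsc22d3 and Ogn in Ddx6-KO cells at day 2, and Fabp4 in TOM cells at day 2.

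Whether these changes differed from those of the control line was tested as the change in Ddx6-KO cells minus the change in TOM cells. The difference was called for 320 genes in the higher direction (2.02%) and 343 in the lower direction (2.17%), and 439 of the 1684 genes called in the Ddx6-KO line were among them. With 1 library left out these counts were 87 to 234 higher and 94 to 296 lower, lowest without a day 0 library of the Ddx6-KO line, and they stayed within 1.5 times of 320 and 343 without day 2 library 2 alone. The lines differed in the sign of the change for some of the largest genes. Apod was at 18.3 and 21.03 FPKM at day 2, against 492 and 473 FPKM at day 0 in TOM cells, a change of −4.55 there, and the difference was 9.89 (SE 0.23, adjusted p = 5.03e-06). Ogn was at 4.78 and 3.86 FPKM at day 2, against 126 and 111 FPKM at day 0 in TOM cells, with a difference of 8.28 (adjusted p = 5.03e-06). Akr1c14, an aldo-keto reductase, was at 60.7 and 65.5 FPKM at day 2, against 6.99 and 5.47 FPKM at day 0 in Ddx6-KO cells and at 0.357 and 0.861 FPKM at day 2, against 8.98 and 5.94 FPKM at day 0 in TOM cells (5.54, adjusted p = 6.66e-04).

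Several inflammatory and matrix genes had large negative differences. Saa3 and Lcn2 changed by 2.22 and 0.89 in TOM cells, with differences of −4.84 and −3.95 (adjusted p = 3.09e-04 and adjusted p = 2.29e-04). In TOM cells Saa3 was at 401 and 396 FPKM at day 2, against 92.2 and 78.0 FPKM at day 0. In Ddx6-KO cells Saa3 was at 343 and 445 FPKM at day 2, against 2650 and 2195 FPKM at day 0. At day 0 Lcn2 was at 145 and 151 FPKM in TOM cells and at 1052 and 895 FPKM in Ddx6-KO cells. Ptgs2 was at 3.22 and 1.97 FPKM at day 2, against 2.13 and 1.78 FPKM at day 0 in TOM cells, and Nos2 at 0.706 and 0.273 FPKM at day 2, against 0.631 and 1.53 FPKM at day 0. Anxa8, an annexin gene, was at 2.34 and 1.14 FPKM at day 2, against 4.97 and 5.32 FPKM at day 0 in Ddx6-KO cells and at 95.6 and 88.8 FPKM at day 2, against 2.38 and 1.39 FPKM at day 0 in TOM cells, a difference of −6.23 (adjusted p = 6.66e-04). For Saa3, Lcn2, Ptgs2 and Nos2 the day 0 libraries of the Ddx6-KO line stood above the 6 other libraries.

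Among the lists, the difference was lower than 0 for 13 of 17 glycolysis genes, 10 of 17 HIF targets, 11 of 23 cholesterol genes, 10 of 21 chemokines and interleukins and 10 of 18 adipocyte markers, counted as called genes, and none of these lists but the last (1) and the chemokines (2) held a called difference above 0. Ldha, for example, was at 199 and 200.97 FPKM at day 2, against 102 and 85.7 FPKM at day 0 in TOM cells, with a difference of −2.96 (SE 0.19, adjusted p = 6.66e-04). Hmgcs1 was at 52.5 and 48.4 FPKM at day 2, against 43.4 and 45.1 FPKM at day 0 in TOM cells, with a difference of −2.07 (adjusted p = 0.00165). For interferon response genes the difference was above 0 in 19 of 37 and below 0 in none, and all 19 fell further in TOM cells. Ifit3 was at 0.256 and 0.926 FPKM at day 2, against 154 and 144 FPKM at day 0 in TOM cells (3.69, adjusted p = 0.00405). In Ddx6-KO cells it was at 1.69 and 1.24 FPKM at day 2, against 21.6 and 13.8 FPKM at day 0. Both lines were thus near the floor for Ifit3 at day 2 and started from unlike levels.

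For Rgs2, Mt1, Ear2 and Mmp3 the difference was not called. Rgs2 changed by 3.09 in Ddx6-KO and 3.10 in TOM cells, a difference of −0.01 (95% interval −0.52 to 0.50, adjusted p = 0.989). Mt1 had a difference of −0.69 (adjusted p = 0.131), though its 95% interval, not adjusted over genes, was wholly negative (−1.18 to −0.20). Ear2 had one of −0.10 (95% interval −0.91 to 0.71, adjusted p = 0.918). Mmp3 had one of −0.10 (95% interval −0.77 to 0.57, adjusted p = 0.902). The difference was called for Glul and Serpina3n, which rose in both lines with a smaller change in Ddx6-KO cells (−1.43 and −1.43, adjusted p = 0.0152 and adjusted p = 0.0167). It was also called for Tsc22d3, which rose in both with a larger change in Ddx6-KO cells (2.72, adjusted p = 0.00132).

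**Figure D5:**
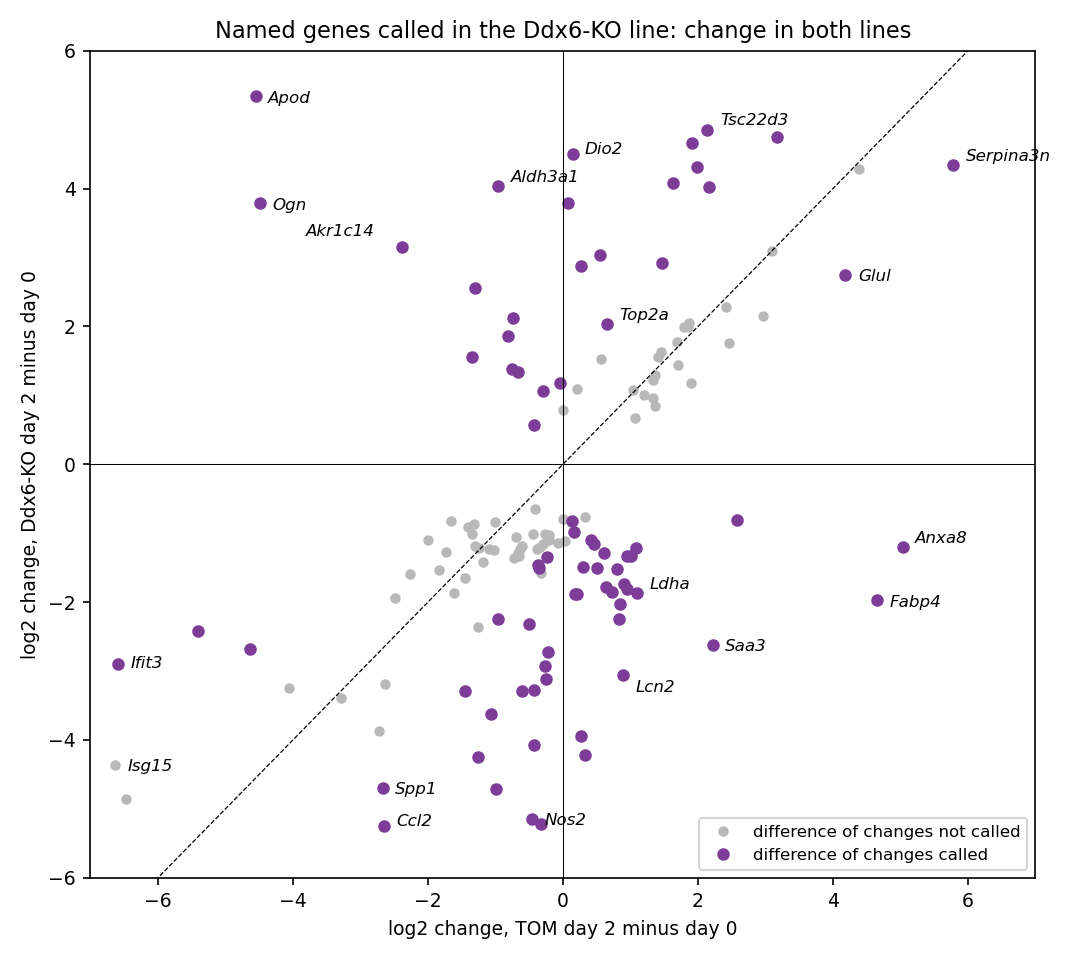
Log2 change between day 2 and day 0 of the named genes called in the Ddx6-KO line, in TOM cells on the horizontal axis and in Ddx6-KO cells on the vertical axis. Purple points have a called difference of the changes and grey points do not, the dashed line marks equal changes, and Apod, Ogn, Fabp4 and Anxa8 lie far from it.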

How the data were processed

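RNA of 8 libraries from 3T3L1 lines was sequenced as stranded total RNA. The authors deposited FPKM per gene, made with TopHat2 (2.1.0) and Cufflinks (2.2.1) on GRCm38/mm10 after FastQC (0.11.2), according to the submitters' processing notes. The release of the gene annotation the authors used is not given in those notes or the other sources used. GENCODE M21 named 45225 of the 46073 gene IDs. FPKM hold no counts, so limma (3.58.1, R 4.3.3) was fitted to log2(FPKM + 1) for genes at 1 FPKM or more in at least 2 of 8 libraries, with 1 mean per line and day over all 8 libraries, a variance trend and Benjamini-Hochberg adjustment over 15811 genes at 0.05. Depth was estimated from the spacing of low FPKM values. The script was tested on simulated data.

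Members and gene lists were chosen with earlier results of these data known. Named genes were the 12 largest called changes in each direction (protein coding, a mean of 5 FPKM or more in the higher group, days not overlapping), up to 4 members of each list with the smallest p, and the 5 largest differences in each direction. Which of these appear in the text, and Mt2, Fkbp5, Dusp1, Errfi1, Pde4b, Sik1, Irs2, Cebpb, Nfia, Nfib, Fosl1, Pparg, Cebpa, Adipoq, Lpl, Il6, Csf1, Il1rl1, Ccl9, Il1rn, Cxcl12, Ptgs1, Ptges, Stat2, Irf7, Irf9, Bst2, Insig1, Acat2, Fasn, Hk1, Hk2, Gapdh, Vegfa, Kdm3a, Egln1, Postn, Vcan, Dcn, Thbs1, Thbs2, Col4a2, Col6a1, Col6a2, Col3a1, Serpinh1, Mmp13, Mmp2, Mmp14, Adamts1, Asns, Slc3a2, Pdgfrb, Gm10800, Rps12, Tyrobp, Thy1, Ly6a, Col1a1, Vim, Plin1, Cidec and Gsr outside the rule, were chosen after their values were seen. Libraries are numbered by their column names, since the numbers in the titles match only in part. Promoter motifs were searched on both strands of RefSeq windows (GRCm38.p6, 250 bases before to 50 after the start), and no motif searched contains another. Alternatives were other pseudocounts, filters, scalings and moderation, the Ddx6-KO libraries alone, a replicate block and each library left out. Summaries, motif searches and plots were made in Python (3.11.15), using matplotlib (3.10.9), numpy (2.4.6), pandas (2.3.3) and scipy (1.17.1). A few genes are not reported here, though they count in the totals of genes and lists.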

Additional observations from a re-analysis of the deposited data

Results flagged for a closer look

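For 25 of the 29 genes named for the largest changes or differences, the change in Ddx6-KO cells differed from that in TOM cells by limma's test of the difference itself. Of these, 13 differed downwards and 12 upwards, with 6 called in opposite directions in the lines. These genes were chosen for large changes or differences, so the values describe them and support nothing further. Their part due to library depth, to the clonal origin of a line and to Ddx6 cannot be told apart in this design.

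On the downward side the difference of log2 changes was −6.63 for Fabp4, −6.23 for Anxa8, −4.90 for Serpinb2 and −4.84 for Saa3. It was −4.68 for Nos2, −4.55 for Prl2c2, −4.21 for Ptgs2, −3.72 for Csf2 and −3.63 for Ccl3. Ccl7, Ccl2, Spp1 and Serpina3n had differences of −2.98, −2.60, −2.02 and −1.43.

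On the upward side the difference was 9.89 for Apod, 8.28 for Ogn, 5.54 for Akr1c14, 4.9999 for Aldh3a1 and 4.36 for Dio2. It was 3.72 for Rtl3, 2.74 for Cxcl13, 2.72 for Tsc22d3 and 2.45 for Aldh1a7. Sned1, Ctla2a and Retnla had differences of 2.33, 1.87 and 1.59.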

How the results depend on the processing

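The 759 higher and 925 lower genes at day 2 of the Ddx6-KO line became 394 and 2156 after TPM rescaling and 303 and 402 with the Ddx6-KO libraries alone. The higher genes became 222 after rescaling over protein-coding genes and 1262 at an adjusted p under 0.1. With 1 library left out they ranged over 198 to 667 higher and 231 to 805 lower. The 320 higher differences between the lines became 213 after TPM rescaling and 103 over protein-coding genes. Without a filter 194 differences were higher and 216 lower, and at an adjusted p under 0.1 these were 557 and 551. With 1 library left out they ranged over 87 to 234 higher and 94 to 296 lower, from 343 lower. Of the 145 called named genes 90 kept their call in each of 19 other fits and 55 lost it in at least 1, and no direction of a called value turned.

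Deviations of same-numbered libraries from their group means had correlations of −0.10 to 0.07. With 2 libraries per group, and numbers that match the titles only in part, this check cannot show whether libraries shared a culture or batch. With a replicate block by the column number, 580 genes were higher and 717 lower, and the differences were 229 and 257.

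The limits are 2 libraries per group, about 1480000 fragments in the shallowest Ddx6-KO library, and FPKM in place of counts. Genes under about 1 FPKM rest on few fragments. The causes of the moves above were not tested.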

Other observations

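Of 32 genes of processing bodies and mRNA decay, 3 rose and none fell (5 and 0 at an unadjusted p under 0.05), with a median of 0.15, or −0.24 after TPM rescaling. Among all genes tested 4.8% rose and 5.85% fell, and 2122 and 1940 of 15811 did so at an unadjusted p under 0.05. Their median was 0.09, or −0.25 after TPM rescaling, so the rises in this list were not far from the background. Cnot6l, a deadenylase subunit, was at 43.9 and 24.04 FPKM at day 2, against 10.4 and 9.36 FPKM at day 0 (1.63, adjusted p = 0.0475). Zfp36 (tristetraprolin), which targets AU-rich mRNAs, rose by 1.22 and Tnrc6a, a partner of Argonaute, by 0.79 (adjusted p = 0.0152 and adjusted p = 0.0461). Cnot6l lost its call without any single Ddx6-KO library or either TOM day 0 library (highest adjusted p = 0.217), Zfp36 lost its call without either day 0 library or day 2 library 1 (highest adjusted p = 0.1103), and Tnrc6a lost its call without any single Ddx6-KO library or either TOM day 2 library (highest adjusted p = 0.201). After TPM rescaling none was higher and 1 was lower, and none was higher without either day 0 library or without day 2 library 1, while 1 was without day 2 library 2.

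Antioxidant genes under NRF2 moved in both directions, with 3 of 19 higher and 5 lower (2 and 9 after TPM rescaling). Gclc, which makes glutathione, was at 12.7 and 12.4 FPKM at day 2, against 2.73 and 2.12 FPKM at day 0 (1.99, adjusted p = 0.00135), while Gsr, which recycles it, was at 7.04 and 3.44 FPKM at day 2, against 15.1 and 25.4 FPKM at day 0 (−1.79, adjusted p = 0.0235). Gsr lost its call without either day 0 library or day 2 library 2 (highest adjusted p = 0.159). Without day 0 library 1, day 0 library 2 and day 2 library 2 the list had 0, 1 and 3 lower members and 2 higher each. Among 19 clock genes, Per2 was at 8.63 and 7.39 FPKM at day 2, against 1.90 and 2.34 FPKM at day 0 (1.53, adjusted p = 0.0123) and its activator Arntl at 2.93 and 4.16 FPKM at day 2, against 12.6 and 12.2 FPKM at day 0 (−1.57, adjusted p = 0.0108). Per2 lost its call without either day 0 library or day 2 library 1 (highest adjusted p = 0.101), and Arntl lost its call without either day 0 library or day 2 library 1 (highest adjusted p = 0.0912). A total of 3 clock genes fell and 1 rose, and without either day 0 library 1 fell and none rose. Without day 2 library 1, 2 fell and none rose.

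Of 23 genes of the TGF-beta and BMP axis 4 rose and 4 fell, with a median of 0.06, or −0.34 after TPM rescaling, when none rose. Grem1, a secreted BMP antagonist, was at 23.1 and 22.5 FPKM at day 2, against 243 and 217 FPKM at day 0 (−3.28, adjusted p = 6.53e-05), and Inhba, the activin A subunit, at 3.43 and 2.29 FPKM at day 2, against 16.3 and 17.98 FPKM at day 0 (−2.25, adjusted p = 0.0124). Inhba lost its call without either day 0 library or day 2 library 2 (highest adjusted p = 0.103). Without either day 0 library none rose and 2 fell, without day 2 library 1, 1 rose and 3 fell, and without day 2 library 2, 3 rose and 2 fell. Among 12 imprinted growth genes, 1 rose and 2 fell, beside 4.8% and 5.85% of all genes tested. The long RNA H19, which rose, was at 15.1 and 18.7 FPKM at day 2, against 1.97 and 3.55 FPKM at day 0 (2.28, adjusted p = 0.00239). Dlk1 and Slc38a4 fell by 1.65 and 1.53 (adjusted p = 0.0294 and adjusted p = 0.0132), and both lost their calls without either day 0 library.

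No ribosomal protein gene of 41 and no nuclear respiratory chain gene of 27 was called in limma, and at an unadjusted p under 0.05 the counts were 1 higher and 0 lower for ribosomal proteins and 0 higher and 5 lower for the respiratory chain. After TPM rescaling 2 and 7 were lower. Without day 2 library 2 and without either TOM day 0 library, 1 and 2 respiratory chain genes were lower.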
